A study of Mus musculus with 4 samples.

Results

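The heat shock chaperones of the cytosol and mitochondria were examined as a set of 42 genes, out of 22144 symbols shared by both deposited gene tables. The genes were chosen by function, with earlier results of these data known, and matched by symbol. The set holds the HSP70 and HSP110 genes, HSP90 and its cochaperones, J proteins, BAG exchange factors, the 8 subunits of the TRiC/CCT chaperonin, the mitochondrial chaperones, the heat shock factors Hsf1 and Hsf2, and the 3 GADD45 genes. GADD45 proteins are stress-inducible regulators of growth arrest and signalling and are not chaperones, so they are given apart. Of the 42 genes, 41 had a mean of at least 1 FPKM (fragments scaled by transcript length and by sequencing depth) over the 4 libraries and were tested. Hspa1a was below that level.

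HSP70 chaperones bind exposed hydrophobic stretches of unfolded proteins in an ATP-driven cycle, in which J proteins deliver the client and BAG and HSP110 proteins release the nucleotide. HSP90 completes the folding of kinases and steroid receptors together with its cochaperones, TRiC/CCT folds actin and tubulin in a closed chamber, and HSP60 with HSP10 does the same for proteins imported into mitochondria. Heat shock factors switch on the inducible members by binding heat shock elements, which are alternating GAA and TTC triplets in promoters. T cells raise many of these genes after activation, when protein synthesis increases.

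RNA was sequenced from induced regulatory T (iTreg) cells, which are conventional T cells turned towards a regulatory program in culture. All 4 libraries came from cells of C57BL/6 mice that were sorted as naive T cells and cultured for 3 days with plate-bound anti-CD3/CD28 at 1 µg/ml and TGF-beta at 2 ng/ml. The groups were WT (2 libraries, WT 1 and WT 2) and MSC KO, labelled as cells of mice without the transcription factor musculin (2 libraries, MSC KO 1 and MSC KO 2). The labels give no age, sex, knockout allele or pooling of animals, and they do not say that replicates came from separate mice, so the spread between replicates may be technical.

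Msc, the targeted gene, measured 0.0243 (WT 1) and 0.0178 (WT 2) against 0.331 (MSC KO 1) and 0.939 (MSC KO 2), all in FPKM. It was therefore higher in the libraries labelled MSC KO, and these are called MSC KO-labelled throughout. In these tables a swap of labels and reads from a part of Msc that a knockout allele keeps cannot be told apart, and a swap would turn the sign of every difference given here. Depth, estimated from the smallest steps between low values, was 25500000 to 35000000 fragments per library, and 10368 to 10578 symbols per library reached 1 FPKM. Of the regulatory T cell markers, Foxp3, the defining transcription factor, measured 62.8 and 66.0 FPKM for WT but 2.97 and 7.05 for the MSC KO-labelled libraries, and Lrrc32 and Ikzf2 were lower too, at 23.9 and 26.0, then 5.78 and 9.46, and at 9.38 and 9.91, then 2.06 and 6.66. Ctla4 was higher, at 112 and 119.6, then 217 and 188, and Il2ra lay between 302 and 364, so that the sum of these 5 markers was 510 to 592 FPKM. The 6 T cell markers in the tables, of 7 listed, summed to 1483 to 1558 FPKM. Other marker lists were low, with their summed FPKM given for WT and then for the MSC KO-labelled libraries. The 5 B cell markers were at 6.95 to 7.25, then 5.04 to 6.02, 5 myeloid markers at 1.67 to 1.87, then 4.02 to 4.12, and 2 CD8 T cell markers at 11.3 to 11.7, then 9.13 and 19.8. Cd68 alone carried the myeloid difference, at 1.35 and 1.39, then 3.85 and 3.39, while Csf1r was at 0 in both MSC KO-labelled libraries. Of the CD8 genes, Cd8a was lower, at 1.58 and 1.90, then 0.571 and 0.658, and Cd8b1 was higher in MSC KO 2 alone, at 19.1 against 8.56 to 9.75. The NK cell markers, 2 of 3 listed, were at 0 in WT and up to 0.0688 in the other libraries with Ncr1 at 0 in all 4, 3 mast cell and basophil markers were at 0 in all but MSC KO 2 (0.118) with Cpa3 and Fcer1a at 0, and the 1 of 3 erythroid markers in the tables stayed at or under 0.0538. Their part in the values that follow was not tested. In bulk RNA, fewer cells expressing a gene and less RNA per cell cannot be told apart.

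Promoters of the members were searched for the sequence that heat shock factors recognise, before the starts listed by RefSeq (GRCm38.p6). The stretches that carry it are printed for 5 genes, 5′ to 3′ on the gene's strand, because they hold the longest elements of the set or belong to the cytosolic HSP70 and HSP110 genes whose values differed most. Capitals mark the heat shock element, found by a search on both strands for TTCNNGAA or GAANNTTC (2 units). A 3-unit element is the same pattern followed by NN and a further GAA or TTC in alternation.
Hspe1: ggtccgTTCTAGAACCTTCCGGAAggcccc
Dnajb6: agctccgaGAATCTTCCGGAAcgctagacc
Hsph1: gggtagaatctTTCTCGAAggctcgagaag
Hspa1a: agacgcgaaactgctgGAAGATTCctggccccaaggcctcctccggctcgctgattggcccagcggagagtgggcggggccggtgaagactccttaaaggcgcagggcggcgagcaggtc
Hspa1b: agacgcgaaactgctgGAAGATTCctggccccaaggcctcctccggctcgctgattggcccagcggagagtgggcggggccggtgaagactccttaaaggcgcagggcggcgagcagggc

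Hspe1 (chr1:55088053-55088082, + strand) and Dnajb6 (chr5:29735844-29735873, + strand) hold elements of at least 3 units, shown with flanks to 30 bases. In Hspe1, 2 overlapping 3-unit matches form an unbroken run of 18 bases with 4 alternating units, from 89 to 72 bases before the start. The Dnajb6 element lies 46 to 34 bases before its start. In GENCODE M21 the Hspe1 stretch also lies in an exon of Hspd1-202, and the Dnajb6 stretch in exons of Dnajb6-201 and Gm5129-201. Hsph1 (chr5:149636351-149636380, - strand) holds a 2-unit element 33 to 26 bases before its start, in exons of Hsph1-203 and Hsph1-206. For Hspa1a (chr17:34972157-34972276, - strand) and Hspa1b (chr17:34959239-34959358, - strand) the whole 120 bases before the start are shown, which overlap no annotated exon, with a 2-unit element 104 to 97 bases before it. These windows carry the same letter at 119 of 120 positions (99.2%), and at 247 of 250 positions (98.8%) of a longer window.

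Promoter entries matched 35 of the 42 members, leaving out Hsp90aa1, Hsp90ab1, Hspa8, Hspa9, Hsf1, Dnajc2 and Cct4. Over the 250 bases before the start, a 3-unit element occurred in 3 of the 35 (8.57%, exact 95% interval 1.8 to 23.1%), namely Hspd1, Hspe1 and Dnajb6, against 139 of 27025 genes in all (0.514%). A 2-unit element, which includes every 3-unit one, occurred in 11 of 35 (31.4%, exact 95% interval 16.9 to 49.3%) against 3932 of 27025 (14.5%). Besides the 3 genes above, these were Hspa1a, Hspa1b, Hsph1, Dnaja1, Dnajb4, Cct2, Cct5 and Fkbp4. Bag2, Bag3 and the 3 GADD45 genes had a promoter entry but no match. Any link between the elements and the differences between groups was not tested. A gene counted if any of its listed starts held the element. The intervals treat the genes as independent draws, though the members were chosen by function. Hspd1 and Hspe1 hold the same 3-unit run, and the Hspa1a and Hspa1b windows are nearly identical. The intervals are therefore only a rough guide. By start, the shares were 8.89% of 45 member starts against 0.466% of 32851 for 3 units, and 28.9% against 12.8% for 2 units. A match describes letters in this window and does not show binding.

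MSC KO-labelled libraries were compared with WT to see how the chaperone set stood between the groups, within each table (MSC KO 1 with WT 1, MSC KO 2 with WT 2) and over both. Differences are given as log2(FPKM + 1), MSC KO-labelled minus WT, with the standard error (SE) of the limma fit over 10603 genes. Of the 41 tested members, 25 were higher in the MSC KO-labelled library of both tables, 6 were lower in both and 10 had opposite signs, beside all-gene shares of 31.2% for higher in both and 37.5% for lower in both. By table, 33 members were higher in the first, against 49.4% of all genes, and 27 in the second, against 44.1%. Because members were chosen with earlier results of these data known, the all-gene shares here and below describe the set and do not test it. The median member difference was 0.10, or 0.13 and 0.07 by table, beside a median over all genes of -0.02, from 0.00 and -0.04. On this scale Hsph1, Bag3 and Gadd45b were higher by at least 1.5-fold of FPKM + 1 in both tables, as were 3.26% of all genes, and no member was lower by that much in both, against 2.45%. By the ratio of FPKM itself Hspa1b joins them, as 4 members against 4.84% of all genes. Hspa1b passed the filter on low values only through MSC KO 1, where it was highest. It is also counted in the 25 members higher in both tables, in those without overlap given next and in those called without MSC KO 2. That fit holds MSC KO 1 alone of its group, so the Hspa1b call there follows from the value that let it pass the filter.

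No member passed limma's test at an adjusted p of 0.05 (Benjamini-Hochberg), where 1 of all 10603 genes did (0.00943%). At an unadjusted p under 0.05, 7 members were higher (Hsph1, Hspd1, Hspe1, Bag2, Bag3, Gadd45b and Gadd45g) and 0 lower, against 9.2% of all genes higher and 11.2% lower. With 2 libraries a group the test has few degrees of freedom. In simulated data of the same size it recovered 83% of 4-fold but 2% of 2-fold changes. These were planted only in genes well above 1 FPKM in WT, and no difference between the tables was simulated. In the real data Foxp3, with a difference of -3.53, had a limma adjusted p of 0.114 and was not called. The 83% therefore does not tell how often a real 4-fold change would be called here. In the authors' deposited tables, Gadd45b in the second table was the only member marked significant, where the share of tested rows so marked was 0.655% and 0.549% by table. Both MSC KO-labelled libraries lay above both WT libraries for 25 members and below both for 4 (Dnaja2, Ahsa1, Cacybp and Hsf1), against 26.6% and 32.5% of all genes.

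The count of calls turned on the MSC KO-labelled libraries. Without MSC KO 1, 8 members were called, all higher, where 9.49% of all genes were called higher and 12.2% lower. Without MSC KO 2, 10 members were called higher and 1 lower, against 12.1% and 13.1% of all genes. Hsph1, Hspd1, Bag3, Gadd45b and Gadd45g were called higher in both of these fits, which is 12.2% of the tested members, and 12.2% of all genes were called in the same direction in both. Each of these fits rests on a lone MSC KO-labelled library that is assumed to vary like the WT pair. That limit holds for every gene below said to be called with an MSC KO-labelled library left out. WT 1 and WT 2 were close for the members, with a median absolute difference of 0.06 (highest 0.16), and MSC KO 1 and MSC KO 2 lay further apart, at 0.12 (highest 0.99). The same medians over all genes were 0.07 and 0.17.

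**Figure D1:**
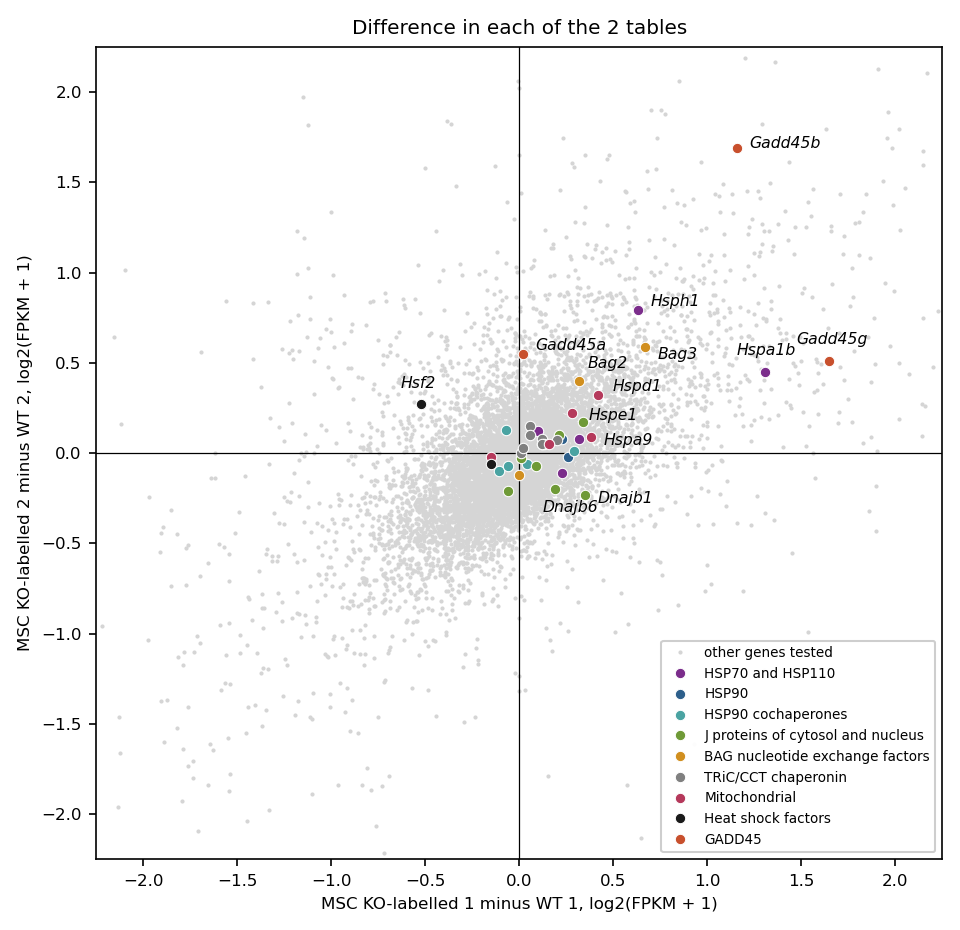
Difference between the MSC KO-labelled and the WT library in the first table (x axis) and in the second table (y axis), in log2(FPKM + 1), for all genes tested (grey points) and for members, coloured by role group. The axes end at 2.25 in each direction, which leaves 199 genes outside, and most members sit close to 0 while Gadd45b, Gadd45g, Hspa1b, Hsph1 and Bag3 lie in the upper right.

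Together the members held 8617 and 8955 FPKM in the WT libraries against 9638 and 9573 in the MSC KO-labelled ones. These sums were 1.08% and 1.11%, then 1.16% and 1.17%, of the FPKM in rows with a gene symbol. FPKM is scaled by transcript length, so levels may be set side by side between genes. Constitutive genes led in every library, Hspa8 first, then Hsp90ab1, then Hspe1, and the inducible HSP70 genes were the lowest.

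**Figure D2:**
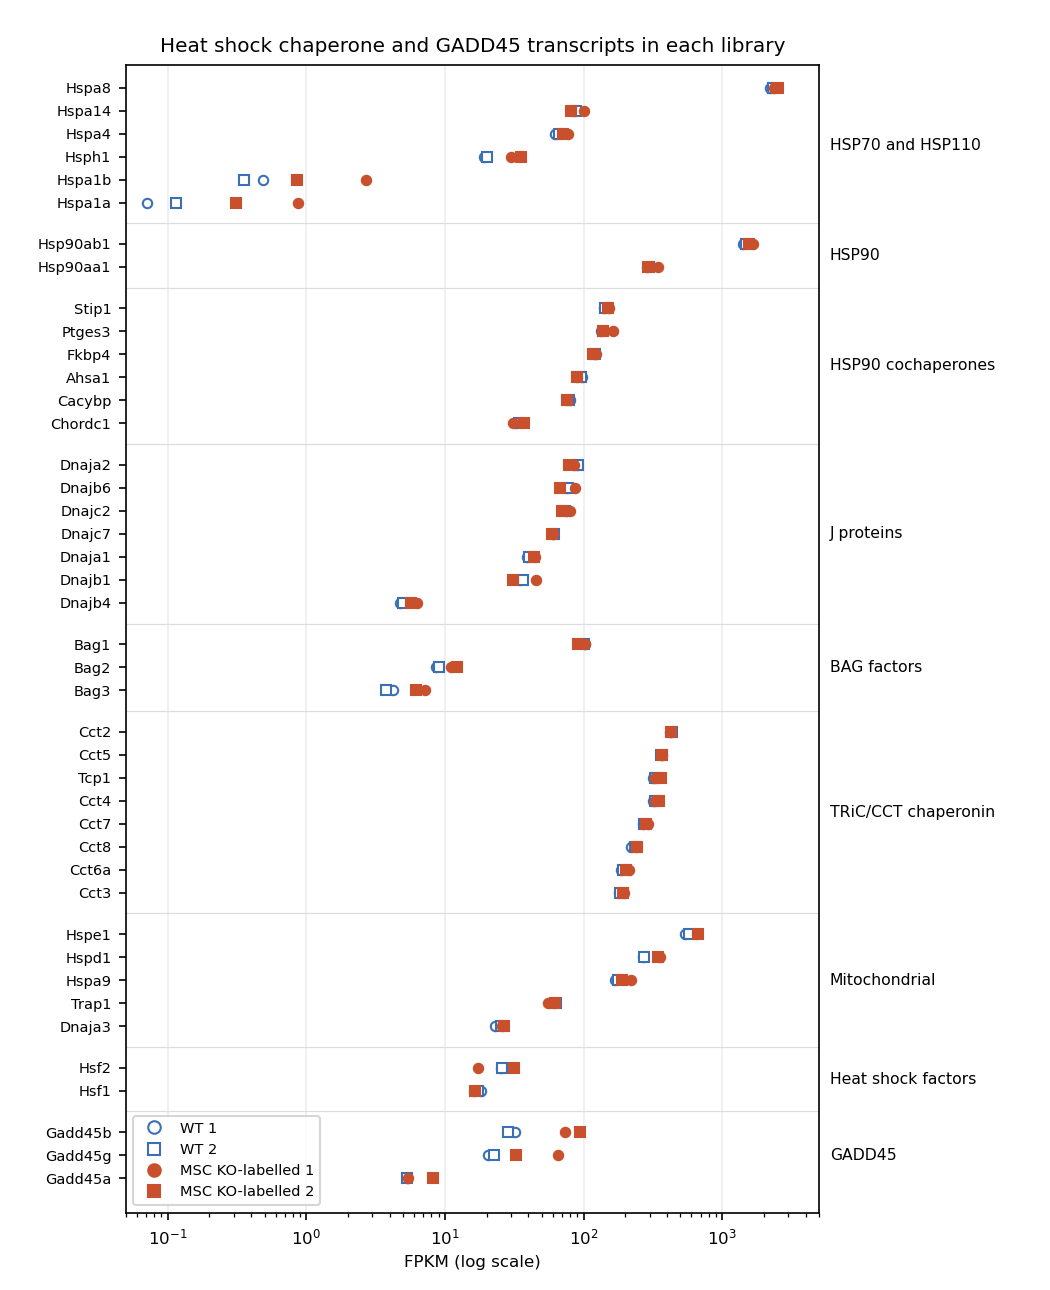
Level of each of the 42 members in the 4 libraries, in FPKM on a log10 axis, ordered by role group, with WT and MSC KO-labelled libraries as separate points. Levels run from 0.0713 FPKM (Hspa1a in WT 1) to 2537 FPKM (Hspa8 in MSC KO 2), and for most members the 4 points nearly coincide.

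Among the HSP70 and HSP110 genes, 4 of 5 tested were higher in both tables, with a median difference of 0.20. Without Hspa1b, which passed the filter on low values only through MSC KO 1, they were 3 of 4 with a median of 0.15. Hspa8, the constitutive HSC70 that folds new proteins and uncoats clathrin vesicles, measured 2224 and 2336 FPKM for WT against 2380.2 and 2537 for the MSC KO-labelled libraries. The higher group began just above the highest WT value, and the difference was 0.11 ± 0.07 (SE, n = 2 per group; limma adjusted p = 0.433). Hspa4, an HSP110-type exchange factor, measured 61.8 and 67.0 FPKM for WT against 77.4 and 70.9 for the MSC KO-labelled libraries, without overlap (0.20 ± 0.11; limma adjusted p = 0.390). Hspa14, which works on the ribosome with Dnajc2, measured 85.7 and 88.6 FPKM for WT, with MSC KO 1 at 101 and MSC KO 2 at 81.7. Its MSC KO-labelled values lay on either side of WT, with a difference of 0.06 ± 0.13 (limma adjusted p = 0.830).

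Hsph1 encodes HSP105, a heat-inducible HSP110 that acts as an exchange factor and helps HSP70 dissolve aggregates. It measured 19.0 (WT 1) and 20.0 (WT 2) against 30 (MSC KO 1) and 35.3 (MSC KO 2), all in FPKM. Both MSC KO-labelled libraries stood well above both WT libraries, by 1.58-fold and 1.77-fold within the tables. The difference of 0.71 ± 0.10 had a 95% interval of 0.41 to 1.01 and a limma adjusted p of 0.139. Hsph1 lies on chromosome 5 (mm9, 150419420 to 150438890).

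Hspa1a and Hspa1b encode the stress-inducible HSP70 and lie 10120 bases apart on chromosome 17 (mm9, Hspa1b at 35093374 to 35096183 and Hspa1a at 35106304 to 35109101). Hspa1b measured 0.491 and 0.357 FPKM for WT, with MSC KO 1 at 2.69 and MSC KO 2 at 0.857. Hspa1a measured 0.0713 and 0.114 FPKM for WT, with MSC KO 1 at 0.864 and MSC KO 2 at 0.308. For both genes every MSC KO-labelled value exceeded every WT value, and MSC KO 1 was the highest.

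Within the tables Hspa1b differed by 5.48-fold and 2.40-fold, and Hspa1a by 12.1-fold and 2.70-fold. On the log scale the Hspa1b difference was 0.88 ± 0.30 (95% interval -0.01 to 1.77, limma adjusted p = 0.246). This difference turned on the settings, at 1.65 with a pseudocount of 0.1 and 0.31 with a pseudocount of 5. It was 0.38 without MSC KO 1 and 1.38 without MSC KO 2. The last value rests on MSC KO 1, the library through which the gene passed the filter on low values. Tested with no filter on low values, Hspa1a had a difference of 0.52 ± 0.17 (limma adjusted p = 0.318). At the estimated depths these values stand for about 5.4 and 71.8 Hspa1a fragments (first table) and 11.9 and 29.6 (second table), and for 35.1 and 211.3 Hspa1b fragments, then 35 and 77.6. The ratio of the summed fragments of both genes was 6.44 (exact Clopper-Pearson 95% interval 4.62 to 9.21, counting error only) and 2.47 (1.74 to 3.55).

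The pair is known to be nearly identical in coding sequence, so reads may have been split between them by the authors' counting and each gene's own value is uncertain. Hspa1a made up 12.7% and 24.3% of their summed FPKM in the WT libraries, then 24.3% and 26.5%. Hspa8 exceeded the sum of the pair by 3956-fold (WT 1), 4954-fold (WT 2), 669-fold (MSC KO 1) and 2177-fold (MSC KO 2). Even at their highest, the inducible genes thus supplied a very small part of the HSP70 mRNA.

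Hsp90ab1, the constitutive HSP90, measured 1415 and 1486 FPKM for WT against 1658 and 1568 for the MSC KO-labelled libraries, without overlap (0.15 ± 0.08; limma adjusted p = 0.383; -0.02 after quantile normalization). Hsp90aa1, its inducible counterpart, measured 286 and 297 FPKM for WT, with MSC KO 1 at 343 and MSC KO 2 at 294. Only MSC KO 1 stood above WT (0.12 ± 0.11; limma adjusted p = 0.578), and without MSC KO 2 the gene was called. The level of Hsp90ab1 was 4.94 and 5.0 times that of Hsp90aa1 in WT and 4.84 and 5.34 times in the MSC KO-labelled libraries.

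The 6 HSP90 cochaperones had a median difference of 0.01 (-0.03 with each library scaled to the same sum), with 2 higher and 2 lower in both tables. Stip1, which passes clients from HSP70 to HSP90 and was the most abundant of them, measured 141 and 144 FPKM for WT against 153 and 149 for the MSC KO-labelled libraries (0.09 ± 0.09; limma adjusted p = 0.616). Ahsa1, the activator of the HSP90 ATPase, went the other way at 97.4 and 96.5 FPKM, then 90.2 and 90.1 FPKM (-0.10 ± 0.09; limma adjusted p = 0.551). Both genes separated the groups, by a small margin. Ptges3, the p23 protein that stabilises the closed HSP90 dimer, measured 133 and 138 FPKM for WT, with MSC KO 1 at 162 and MSC KO 2 at 139, and was called when MSC KO 2 was left out. Cacybp, a linker to ubiquitin ligases, was at 79.5 and 79.1 FPKM, then 76.3 and 75.4 FPKM. Fkbp4, the immunophilin of steroid receptor complexes, and Chordc1, a zinc-binding partner of HSP90, had opposite signs in the tables and differences of -0.01 and 0.03.

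The J proteins of the cytosol and nucleus were divided, with 2 of 7 higher in both tables, 1 lower in both and 4 of opposite sign. By table their medians were 0.19 and -0.07. Dnajb1, the main heat-inducible J protein, measured 35.1 and 36.5 FPKM for WT, with MSC KO 1 at 45.1 and MSC KO 2 at 31.0. Dnajb6, a suppressor of polyglutamine aggregation, had the same shape at 76.2 and 77.5 FPKM, then 87.0 and 67.2 FPKM. In both genes MSC KO 1 was the highest library and MSC KO 2 the lowest, and the fitted differences were 0.06 ± 0.18 and -0.01 ± 0.14. Dnajb1 was called higher when MSC KO 2 was left out.

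Dnaja2, in WT the most abundant of these 7 J proteins, measured 89.1 and 90.8 FPKM for WT against 85.2 and 78.1 for the MSC KO-labelled libraries (-0.14 ± 0.10; limma adjusted p = 0.480). Its relative Dnaja1 was at 38.8 and 40.7 FPKM, then 45.0 and 43.8 FPKM (0.16 ± 0.09; limma adjusted p = 0.423). These close relatives, both partners of HSC70, therefore separated the groups in opposite directions, and neither passed the test. Dnajb4 was at 4.71 and 4.98 FPKM, then 6.25 and 5.70 FPKM (0.25 ± 0.11; limma adjusted p = 0.311). Dnajc7, an HSP70 and HSP90 binding protein, stayed at 59.6 to 60.8 FPKM in all 4 libraries, and Dnajc2, the ribosome-bound partner of Hspa14, at 69.6 to 79.5 FPKM.

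Of the BAG proteins, which trigger ADP release from HSP70, Bag3 and Bag2 were higher in both tables. Bag1 was lower in both, but at 0.999-fold in the first table. With each library scaled to the same median it was no longer lower in both. Bag3, a heat-inducible member that steers clients to autophagy, measured 4.19 and 3.78 FPKM for WT against 7.23 and 6.18 for the MSC KO-labelled libraries. The groups were clearly apart, by 1.73-fold and 1.64-fold (0.63 ± 0.10; limma adjusted p = 0.149; 0.38 with a pseudocount of 5). Bag2, which inhibits the ubiquitin ligase CHIP, was at 8.63 and 9.03 FPKM, then 11.0 and 12.2 FPKM, again without overlap (0.36 ± 0.09; limma adjusted p = 0.195). Bag1, a link between HSP70 and the proteasome and the most abundant of the 3, measured 102 and 100.03 FPKM for WT against 102 and 91.9 for the MSC KO-labelled libraries (-0.06 ± 0.09; limma adjusted p = 0.741).

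**Figure D3:**
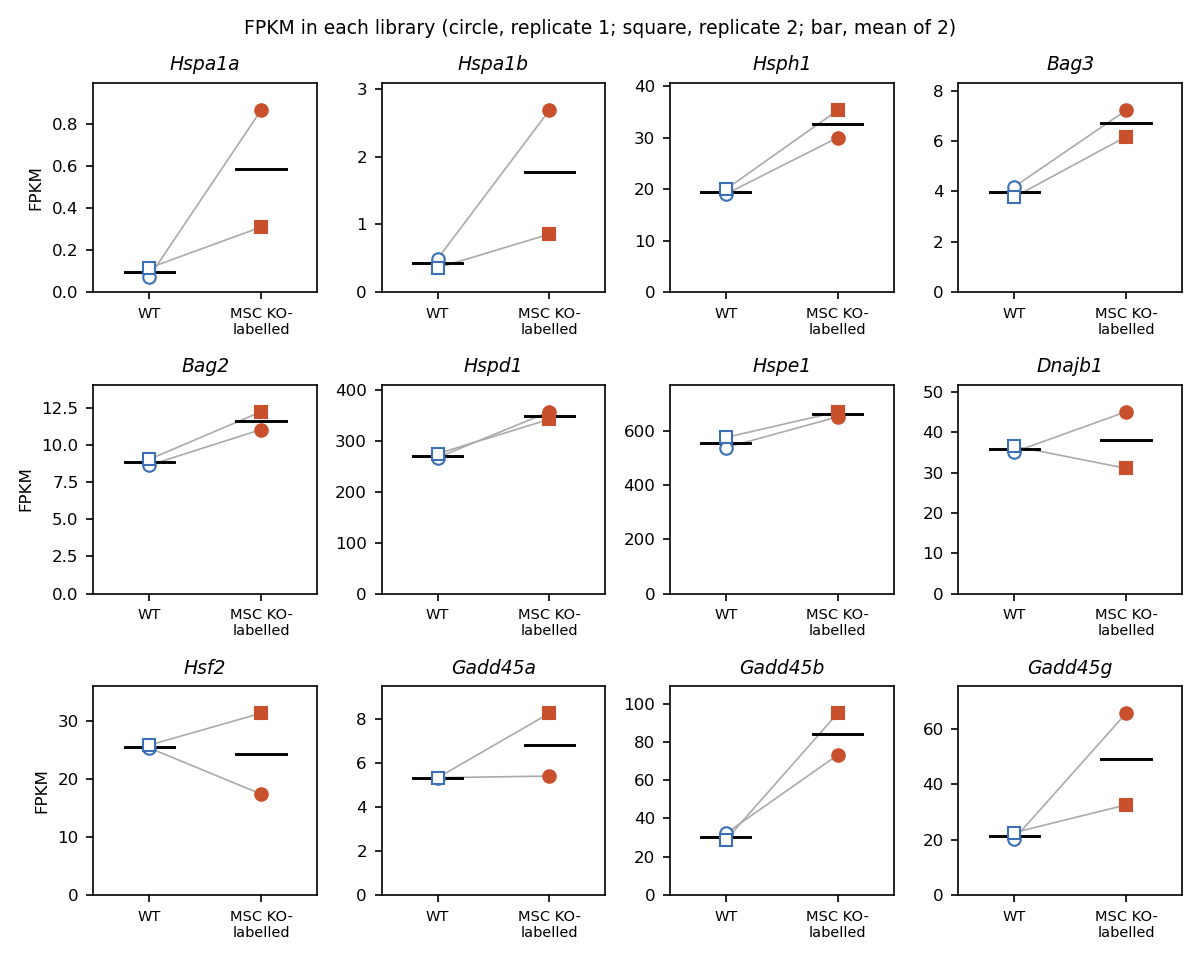
Levels in FPKM of single members in each library, 1 panel for each of 12 genes with its own axis from 0, circles for replicate 1, squares for replicate 2, a line joining the libraries of a table and a bar at the mean. Hsph1, Bag3, Hspd1 and Gadd45b are higher in both MSC KO-labelled libraries, while Dnajb1 and Hsf2 have MSC KO 1 and MSC KO 2 on opposite sides of WT.

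The 8 subunits of TRiC/CCT, which assemble into a ring in equal copy number, differed little. Their differences ranged from 0.00 to 0.14 with a median of 0.09, and 7 of 8 were higher in both tables, a count of 6 with each library scaled to the same sum and 4 after quantile normalization. Mean subunit level was 283 and 291 FPKM for WT against 299 and 304 for the MSC KO-labelled libraries. Cct2, the most abundant subunit, was at 421 and 432 FPKM, then 425 and 431 FPKM, a difference of 0.00 ± 0.08 with a 95% interval of -0.24 to 0.25. Cct6a had the largest difference, at 186 and 193 FPKM, then 214 and 203 FPKM (0.14 ± 0.09; limma adjusted p = 0.470). Cct3, the least abundant, was at 179.8 and 183 FPKM, then 196 and 194 FPKM (0.10 ± 0.09; limma adjusted p = 0.558).

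Cct2 was the highest and Cct3 the lowest subunit in each of the 4 libraries, 2.34-fold and 2.36-fold apart in WT and 2.17-fold and 2.23-fold apart in the MSC KO-labelled libraries. Tcp1, the founding subunit, measured 316 and 326 FPKM for WT against 329 and 363 for the MSC KO-labelled libraries, and Cct5 stayed at 361 to 369 FPKM in all 4. Cct4, Cct7 and Cct8 had differences of 0.08, 0.09 and 0.08. The share of any subunit in the summed level of the 8 moved by at most 0.915 percentage points within a table, for Tcp1, and no subunit reached 1.5-fold in either table.

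In mitochondria, 4 of 5 members were higher in both tables, with a median difference of 0.24. Hspd1, the HSP60 chaperonin of the matrix, measured 267 and 274 FPKM for WT against 357 and 342 for the MSC KO-labelled libraries. Hspe1, the HSP10 lid of the same chamber, was at 539.9 and 577 FPKM, then 654 and 672 FPKM. For both genes the MSC KO-labelled libraries stood above both WT libraries. The differences were 0.37 ± 0.09 for Hspd1 (95% interval 0.11 to 0.63; limma adjusted p = 0.186) and 0.25 ± 0.08 for Hspe1 (limma adjusted p = 0.237).

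Hspd1 and Hspe1 lie head to head on chromosome 1 (mm9, 55134678 to 55144776 and 55144992 to 55148161) with 215 bases between them, and the RefSeq windows of the pair overlap. Both 3-unit matches of the run printed for Hspe1 are at the same bases within the 250 before 1 of the 2 listed Hspd1 starts, so the count of 3 promoters above holds this run for both genes. Hspe1 was 2.02 and 2.11 times as abundant as Hspd1 in WT and 1.83 and 1.97 times in the MSC KO-labelled libraries. Hspa9, the mitochondrial HSP70 that pulls proteins through the import pore, measured 169 and 177 FPKM for WT against 220.4 and 189 for the MSC KO-labelled libraries (0.24 ± 0.12; limma adjusted p = 0.355), and it was called without MSC KO 2. Dnaja3, its J protein partner, was at 23.2 and 25.5 FPKM, then 25.9 and 26.6 FPKM. Trap1, the mitochondrial HSP90, differed from the rest at 61.7 and 63.5 FPKM, then 55.4 and 62.4 FPKM, a difference of -0.09 with overlapping groups.

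Hsf1, the master regulator of the heat shock response, measured 18.1 and 17.3 FPKM for WT against 16.2 and 16.5 for the MSC KO-labelled libraries (-0.11 ± 0.09; limma adjusted p = 0.554). Its mRNA was thus slightly below WT in both, and HSF1 is mainly controlled at the protein level. Hsf2, which forms trimers with HSF1, measured 25.4 and 25.9 FPKM for WT, with MSC KO 1 at 17.4 and MSC KO 2 at 31.3. The MSC KO-labelled libraries fell on opposite sides of WT, and the fit over both gave -0.12 ± 0.23 (limma adjusted p = 0.791). The difference was 0.28 with MSC KO 1 left out and -0.53 with MSC KO 2 left out. Each of these values sets a lone MSC KO-labelled library against the WT pair.

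On the log2(FPKM + 1) scale Gadd45b and Gadd45g had the largest fitted differences of the set, while with a pseudocount of 0.1 Hspa1b came first, at 1.65 against 1.45 and 1.11. All 3 GADD45 genes were higher in both tables (2 of 3 with each library scaled to the same sum). Gadd45b, which is induced by NF-kappaB and TGF-beta and acts on p38 signalling in T cells, measured 32.2 (WT 1) and 28.7 (WT 2) against 73.2 (MSC KO 1) and 95 (MSC KO 2), all in FPKM. The groups were far apart, by 2.27-fold and 3.30-fold, at this gene on chromosome 10 (mm9, 80392836 to 80394949). Its difference was 1.43 ± 0.17 with a limma adjusted p of 0.130, and the q-value in the authors' deposited table was 0.348 for the first pair of libraries and 0.0143 for the second.

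Gadd45g, a partner of Gadd45b in interferon-gamma induction, measured 20.3 and 22.5 FPKM for WT, with MSC KO 1 at 65.6 and MSC KO 2 at 32.5. Both MSC KO-labelled libraries exceeded WT, by 3.23-fold and 1.44-fold (1.08 ± 0.32; limma adjusted p = 0.225). Its difference was 0.58 without MSC KO 1 and 1.57 without MSC KO 2. Gadd45a, a target of p53, stood at 5.32 FPKM for both WT libraries, with MSC KO 1 at 5.40 and MSC KO 2 at 8.25. Only MSC KO 2 stood clearly above WT (0.28 ± 0.17; limma adjusted p = 0.431), and without MSC KO 1 the gene was called. Without the 3 GADD45 genes the median member difference was 0.09, and 22 of 38 members were higher in both tables. With Hspa1b left out as well, 21 of 37 were.

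The sizes in the tables did not match throughout. For 28 of 41 members (68.3%) the difference was larger in the first table than in the second, against 56.9% of all genes. Of the 10 members with opposite signs, 8 were higher in MSC KO 1 and lower in MSC KO 2 (Hspa14, Hsp90aa1, Dnajb1, Dnajb6, Dnajc2, Dnajc7, Cct2 and Fkbp4), and the remaining 2, Chordc1 and Hsf2, went the other way. None of the 10 reached 1.5-fold in either table.

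**Figure D4:**
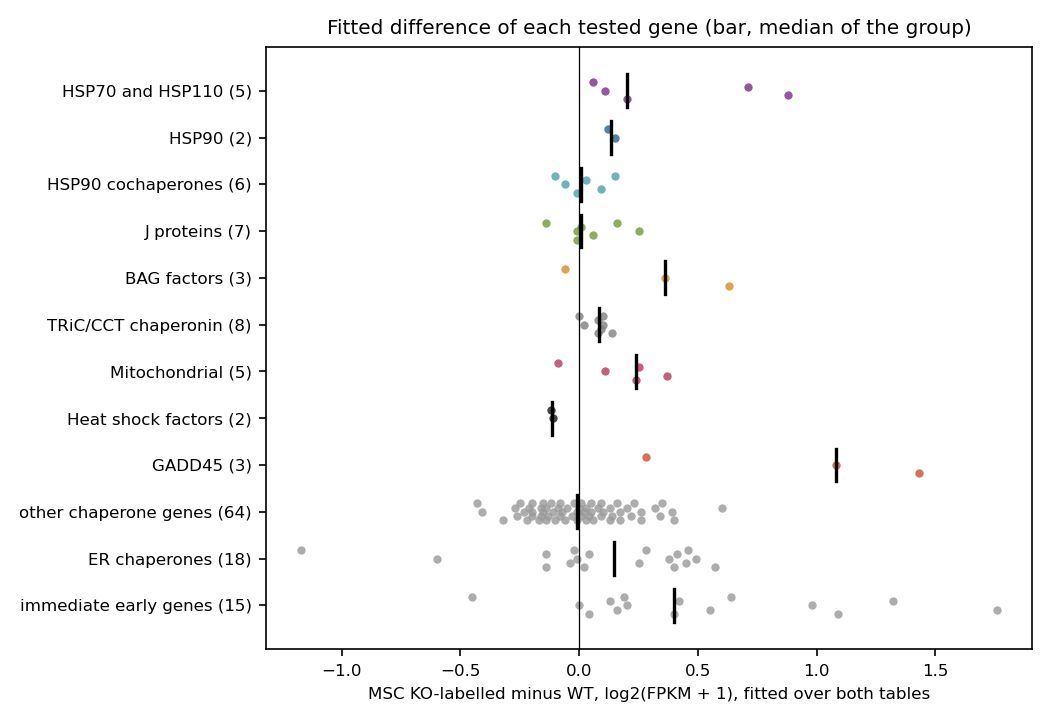
Fitted difference (MSC KO-labelled minus WT, log2(FPKM + 1), x axis) of each tested gene, 1 point per gene, by role group and for the further chaperones, the endoplasmic reticulum chaperones and the immediate early genes, with a bar at each median. The TRiC/CCT subunits lie between 0.00 and 0.14, and the GADD45 genes reach 1.43.

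Beyond the set, 69 further chaperone genes were listed (prefoldin, other HSP70 and J proteins, other cochaperones, small heat shock proteins, other mitochondrial chaperones, tubulin cofactors and regulators of heat shock factors). Of the 64 tested, 21 were higher and 25 lower in both tables, 0 were called by limma (5 higher and 3 lower at an unadjusted p under 0.05), and the median difference was -0.01. The background shares given above were 31.2% and 37.5%. Prefoldin, which hands nascent actin and tubulin to TRiC/CCT, had 4 of 6 subunits lower in both tables and 1 higher, and a group of tubulin cofactors and phosducin-like proteins had 6 of 8 lower and 1 higher. Their medians were -0.10 and -0.11. The subgroups were not alike. In both tables, 7 of 19 other J proteins were higher and 6 lower. The same counts were 4 and 4 of 9 for other HSP70 genes and 4 and 2 of 11 for other HSP90 cochaperones. They were 3 and 0 of 6 for other mitochondrial chaperones, 1 and 2 of 3 for small heat shock proteins, and 0 and 1 of 2 for regulators of heat shock factors.

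Of the further genes, the 6 with the largest same-sign differences included 4 J proteins. Dnajc17, a nuclear J protein, was lower at 16.4 and 16.4 FPKM for WT against 12.5 and 11.3 for the MSC KO-labelled libraries (-0.43 ± 0.09; limma adjusted p = 0.175). Dnaja4 was at 4.15 and 4.41 FPKM, then 8.67 and 5.59 FPKM, Dnajb5 at 11.1 and 12.1, then 14.5 and 16.7, and Dnajb14 at 2.54 and 3.40, then 3.94 and 4.48. Ppid, the cyclophilin 40 cochaperone of HSP90, measured 75.6 and 74.1 FPKM for WT against 94.1 and 97.7 for the MSC KO-labelled libraries. Tbca, a beta-tubulin folding cofactor, was at 321 and 329.7 FPKM, then 254 and 266 FPKM. These 6 were picked by the size of these differences, so the lack of overlap between their groups follows largely from the choice. Of the 64 tested, 19 lay above and 18 below WT without overlap, against 26.6% and 32.5% of all genes. None of the 6 passed the adjusted test.

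Chaperones of the endoplasmic reticulum, which answer to a different stress pathway, were set beside the members. Of 18 tested, 9 were higher and 4 lower in both tables, with a median of 0.14, or 0.29 and 0.06 by table. Their HSP70, Hspa5, measured 138 and 143 FPKM for WT, with MSC KO 1 at 249 and MSC KO 2 at 177, and their HSP90, Hsp90b1, was at 147 and 154, then 229.5 and 188. As with Hspa1b, Hspa9 and Hsp90aa1, MSC KO 1 was the highest library for Hspa5 and Hsp90b1. The largest differences of the list went the other way. Dnajc10 was at 49.0 and 50.7 FPKM, then 30.2 and 35.2. Pdia4 was at 164 and 50.9 FPKM, then 43.1 and 37.2, with WT 1 far from WT 2. Immediate early genes, which respond within minutes to activation or to handling of cells, had 9 of 15 tested higher in both tables, 1 lower and a median difference of 0.40. Their part in the member values was not tested.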

How the data were processed

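Gene expression in 2 WT and 2 MSC KO iTreg libraries was deposited by the authors as 2 tables (WT 1 with MSC KO 1, WT 2 with MSC KO 2), laid out like Cuffdiff output. Reads were aligned to mm9 with TopHat, per the submitters' processing notes; no version of it is given in the sources used here. The authors' values carry no stated unit and were taken to be FPKM, given the layout. Each gene also has a p-value and a q-value by the authors. Locus starts were found to count from 0 and were raised by 1. Whether the tables were normalized together is not stated.

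From these, log2(FPKM + 1) was tested for 10603 genes with a mean of at least 1 FPKM by limma 3.58.1 (R 4.3.3), two-sided, with the table as block, a trended prior variance (2.36 prior and 1 residual degrees of freedom) and Benjamini-Hochberg adjustment. FPKM estimates carry no read counts, so fragments were estimated from the smallest steps between low values and GENCODE M21 transcript lengths. In simulated data, 200 of 10603 genes were changed, and 88 calls held 3 false ones. Rows without a symbol (1925 and 2325, 49.9 to 54.1% of FPKM) were left out.

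Members and gene lists were chosen with earlier results of these data known. Named in full were Hspa1a, Hspa1b, Hsf1, Hsf2, the GADD45 genes, Msc, Foxp3, members marked in the authors' tables, and in each role group the most abundant member and the 2 with the largest same-sign difference; of the further chaperones, the first 6 by that measure. The other members, Hspa5, Hsp90b1, Dnajc10 and Pdia4 were named after their values were seen. RefSeq promoters (GRCm38.p6) were searched for 250 bases before the start.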

Additional observations from a re-analysis of the deposited data

How the results depend on the processing

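Over all 10603 genes limma called 1 gene. It called 153 with no replicate block, 0 with a pseudocount of 5, 0 with no filter on low values, 3 with a filter at 5 FPKM, 7 after scaling all libraries to 1 sum, 0 after quantile normalization, 0 with a prior variance without trend and 26 with small RNA symbols left out. Members called stayed at 0 under all of these; the cause of the changes was not tested. Leaving out 1 library gave 0 to 2672 genes and 0 to 11 members called, with fewer samples and no block. Same-numbered libraries deviated together with a correlation of 0.0589 over genes. Whether the numbers mark a shared day or mouse is not stated, and this correlation cannot decide it. The block changed no call of a member. The median member difference ranged from 0.06 (same sum) to 0.13 (without WT 2), and that of the further chaperones from -0.06 to 0.04. Chosen after seeing the data, rescaling to the same sum gave 22 members higher and 9 lower in both, and quantile normalization gave 22 and 5. Of all 10603 genes, 2815 were higher and 4615 lower in both under the same sum, and 3159 and 4255 after quantile normalization. Among single genes, 375 of 404 values kept direction and side of the threshold, and 7 changed sign. The rest kept direction but changed side of the threshold, each with a MSC KO-labelled library left out. Hsf2 without MSC KO 1 changed both sign and side. The cause was not tested. Cct2 turned to -0.04 under the same sum and -0.02 after quantile normalization, and Hsp90ab1 to -0.02 after quantile normalization. With 1 library left out in turn, Cct2 ranged from -0.02 to 0.02, Bag1 from -0.14 to 0.01 and Hsf2 from -0.53 to 0.28. Promoters with a heat shock element were 31.4% for 2 units in place of 8.57% for 3. At this depth Hspa1a and Msc rest on few fragments.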
